A study of Mus musculus with 8 samples.

Results

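The comparison examined here set 2 wildtype arrays, wildtype 3 and 4, against the other 2 wildtype arrays of the series, wildtype 1 and 2. They were chosen by label, with no measured value used, and make up 4 of the 8 arrays. Each array held total RNA of mouse round spermatids purified by centrifugal elutriation, a separation of cells by size. The mice were aged 8 weeks and, by the sample records, carried no transgene. The remaining arrays held the same cell type from mice aged 8 weeks with a short hairpin RNA transgene: 2 labelled with the shSLX construct and 2 with the shSLY construct. These constructs are named for Slx and Sly, multicopy genes of the X and Y chromosomes that are read in spermatids. The controls were described as matched in age and strain, and the strain and the promoter of the constructs are not given in the sources used here. By the array labels in the sample records, wildtype 3 and 4 shared 1 slide with both shSLX arrays. Wildtype 1 shared another slide with both shSLY arrays, and wildtype 2 lay on a slide of its own. These labels are in dispute for all arrays but wildtype 1 and 2, as described below. Slide and preparation therefore cannot be told apart between the wildtype pairs. Whether each sample was a separate animal is not stated, so the p-values describe the spread among these preparations alone, and that spread could be technical.

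Round spermatids are haploid germ cells that follow meiosis. They build the acrosome and the sperm tail, and later pack their DNA with transition proteins and protamines. In the testis they lie among spermatogonia, spermatocytes and the supporting Sertoli cells, while Leydig cells, macrophages and blood vessels lie outside the tubules. A purified fraction can therefore carry RNA of other germ cells, of somatic cells and of blood, and the markers of each are given below. In such bulk samples, fewer cells of a type and less RNA per cell cannot be told apart.

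The names of some arrays are in dispute between the deposited tables. All values below are those of the authors' normalized table, in which columns are named by sample record. A second table holds non-normalized signals under array labels. Its columns headed wildtype 1 and 2 ranked all probes exactly as the normalized columns of those samples did (Spearman correlation 1). Its columns headed wildtype 3 and 4 instead ranked the probes as normalized shSLY 1 and 2 did (correlation 1). Those headed shSLY 1 and 2 ranked them as normalized shSLX 1 and 2 did (correlation 1). Those headed shSLX 1 and 2 matched no normalized column, with correlations of 0.893 and 0.916 at best, and the normalized values of wildtype 3 and 4 matched none of its columns. By that table the slides are turned too: the values called shSLX here would lie on the slide of wildtype 1, those called shSLY on the slide labelled for wildtype 3 and 4, and wildtype 3 and 4 would have no known slide. The names of wildtype 3 and 4 and of the knockdown arrays, and all slides but those of wildtype 1 and 2, are therefore in doubt. Every direction and every slide below is as the sample records give it. Read by its own headers, the second table gave the opposite sign for 18 of the 30 genes named first below, the globin genes among them. None of the 30 kept both its direction and its call there.

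Sly, the gene for which 1 construct is named, went against the labels on its 1 probe. Measured by 1 probe, it had 9.45 and 8.93 in the arrays labelled shSLX and 10.56 and 10.26 in those labelled shSLY, with 10.05 and 10.04 in wildtype 3 and 4 and 10.52 and 10.36 in wildtype 1 and 2, as normalized log2 signals. Between the wildtype pairs it differed by -0.39 ± 0.16 (limma adjusted p = 0.146). In the arrays labelled shSLY it differed by -0.03 from wildtype 1 and 2 (adjusted p = 0.959) and by 0.36 from wildtype 3 and 4 (adjusted p = 0.124). In the arrays labelled shSLX it was lower, by -0.86 against wildtype 3 and 4 (adjusted p = 0.0181) and by -1.25 against wildtype 1 and 2 (adjusted p = 0.00162). Sly was thus not called lower in the arrays labelled with its construct, and it was in the others. The largest falls in shSLX minus wildtype 3 and 4 were the X-linked genes Gm14594 (-1.19), Gm5935 (-1.11), Gm14525 (-1.08) and Gm5168 (-1.07). Each had an adjusted p of 0.0285 or less in limma. Whether any of them is a copy of Slx was not tested. The knockdown arrays are named by label alone below, and which copies of Sly the probe reads was not tested.

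Acrv1 and Hils1, 2 spermatid genes chosen after their values were seen, were high on all 4 wildtype arrays. Acrv1, which encodes an acrosomal vesicle protein, had a normalized log2 signal of 13.65 and 13.91 in wildtype 3 and 4, against 13.87 and 13.72 in wildtype 1 and 2. Hils1, a linker histone variant of spermatids, had 14.12 and 14.14 in wildtype 3 and 4, against 14.06 and 14.03 in wildtype 1 and 2. Neither gene passed the test between the pairs (adjusted p = 0.939 and 0.618 in limma). Key Leydig cell genes (Cyp11a1, Cyp17a1 and Star) and the endothelial marker Pecam1 were not kept by the detection filter. That filter required a detection p-value under 0.01 in at least 2 of 8 columns of the non-normalized signals. None of those columns matched the values of wildtype 3 and 4, so the filter does not show whether a gene was detected in these arrays. Acrv1 and Hils1 were thus present at high signal. Other spermatid genes, some of which differed between the pairs, and the markers of other cells are described below.

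Between the wildtype pairs, 946 probes were higher (5.71%) and 834 lower (5.03%) in wildtype 3 and 4, out of 16572 tested, so 10.7% differed at an adjusted p under 0.05. Across the 1 probe taken for each of 9451 genes, 497 genes were higher (5.26%) and 527 lower (5.58%), or 10.8% in all, and 44.9% had a log2 difference above 0, which is the background for each gene list below. Most differences were small: 94 probes passed 2-fold, 54 of them higher and 40 lower, and 79 of these 94 passed the test. At an unadjusted p under 0.05 the number was 4726 of 16572 probes in either direction, which is the background for the unadjusted counts of the lists below. It is a count of probes and is not split by direction. The tests were limma fits with 2 arrays a group and 1 estimate of spread over all 8 arrays, and the median standard error of a log2 difference was 0.109. The count rested on every array: it was 191, 176, 130 and 149 without wildtype 1, 2, 3 or 4, where the lone array left in its pair was assumed to vary like the other groups. It was 3809 without either shSLX array, and 3928 in a fit of the wildtype arrays alone.

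The pairs were much closer within than between. The log2 signals of wildtype 3 and wildtype 4 differed with an SD of 0.160 over probes, and 14 probes passed 2-fold. Those of wildtype 1 and wildtype 2 differed with the same SD of 0.160, although these arrays lay on separate slides, and 37 probes passed 2-fold. For the 4 pairings of an array from one pair with an array from the other, the SD was 0.287 to 0.304 and 87 to 126 probes passed 2-fold. The 2 pairs thus had the same overall spread.

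**Figure D1:**
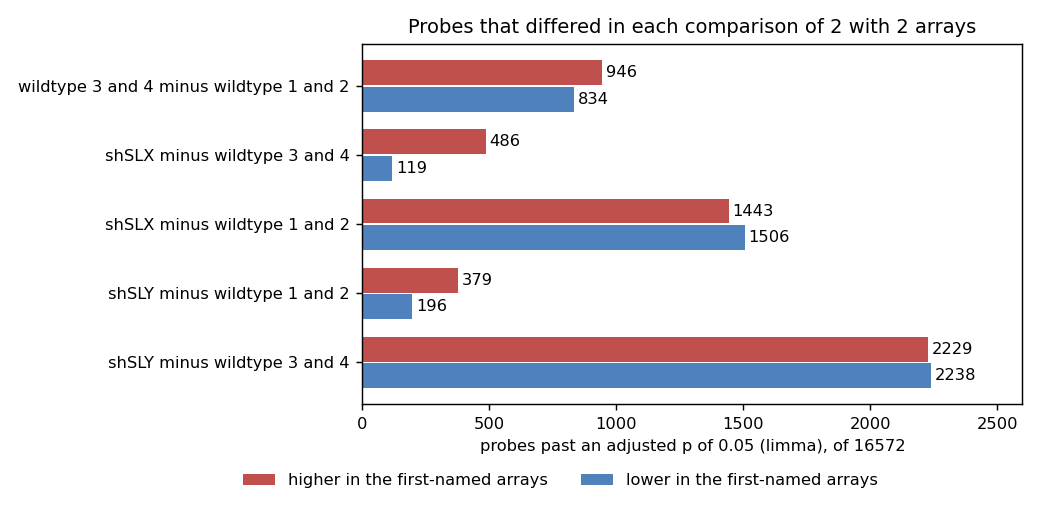
Number of probes past an adjusted p of 0.05 (limma, 16572 probes) in each comparison of 2 with 2 arrays. Red bars count probes higher and blue bars probes lower in the arrays named first. The wildtype comparison (946 and 834) exceeds shSLX minus wildtype 3 and 4 (486 and 119) and shSLY minus wildtype 1 and 2 (379 and 196). By the sample records, shSLX shares a slide with wildtype 3 and 4, and shSLY with wildtype 1 but not wildtype 2. That order of counts did not hold without any 1 of the wildtype arrays.

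The largest rise was that of Ckmt2, which encodes a mitochondrial creatine kinase best known from heart and skeletal muscle. Its log2 signal was 9.91 and 9.76 in wildtype 3 and 4, against 7.70 and 7.63 in wildtype 1 and 2, a difference of 2.17 ± 0.14 (SE) or 4.51-fold (limma adjusted p = 0.000154). Both of its probes passed the test. The arrays labelled shSLX, at 10.19 and 9.84, lay with wildtype 3 and 4, and the arrays labelled shSLY, at 7.06 and 7.32, lay below wildtype 1 and 2. Wildtype 3 and 4 and the arrays labelled shSLX thus lay above the other 4 arrays. These 4 share a slide by the sample records, but the headers of the second table do not place them on 1 slide.

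Among the further rises, the RIKEN gene 4930415O20Rik had 12.20 and 11.95 in wildtype 3 and 4, against 10.31 and 10.55 in wildtype 1 and 2, a rise of 1.64 ± 0.14 (adjusted p = 0.000622). Hsd3b2, of the 3-beta-hydroxysteroid dehydrogenase family of steroid hormone synthesis, had 11.34 and 11.16 in wildtype 3 and 4, against 9.77 and 9.70 in wildtype 1 and 2, a rise of 1.51 ± 0.13 (adjusted p = 0.000642). Near-identical relatives of Hsd3b2 may bind the same probe. Nop58, a core protein of the particles that methylate ribosomal RNA, rose by 1.28 ± 0.09 (adjusted p = 0.00027), with 10.77 and 10.80 in wildtype 3 and 4, against 9.55 and 9.46 in wildtype 1 and 2. Hyal6, a gene of the hyaluronidase family, rose by 1.18 ± 0.12 with all 4 of its probes past the threshold. Its log2 signals were 10.49 and 10.58 in wildtype 3 and 4, against 9.40 and 9.31 in wildtype 1 and 2. In each of these genes the pairs did not overlap.

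The other 10 of the 15 largest rises are given by their differences. Elf2, an ETS-family transcription factor, rose by 1.23 on the log2 scale, with 4 of its 5 probes past the threshold. Tra2b, a splicing regulator, rose by 1.14, Suz12, a subunit of Polycomb repressive complex 2, by 1.08, and Taf15, an RNA-binding protein of the FET family, by 1.03. Smc4, a condensin subunit, rose by 1.07 on 1 of its 2 probes, and the other probe had the opposite sign. The remaining rises were Gng10, a G-protein gamma subunit (1.13), Myl10, a myosin light chain (1.11), Il3ra, a receptor chain for interleukin 3 (1.08), Gm10125 (1.07) and Dnajc7, a co-chaperone (1.05). All had adjusted p-values of 0.0132 or less. Of the 15 rises, 10 kept their call when any 1 wildtype array was left out: Ckmt2, 4930415O20Rik, Hsd3b2, Nop58, Elf2, Hyal6, Tra2b, Suz12, Gm10125 and Smc4.

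**Figure D2:**
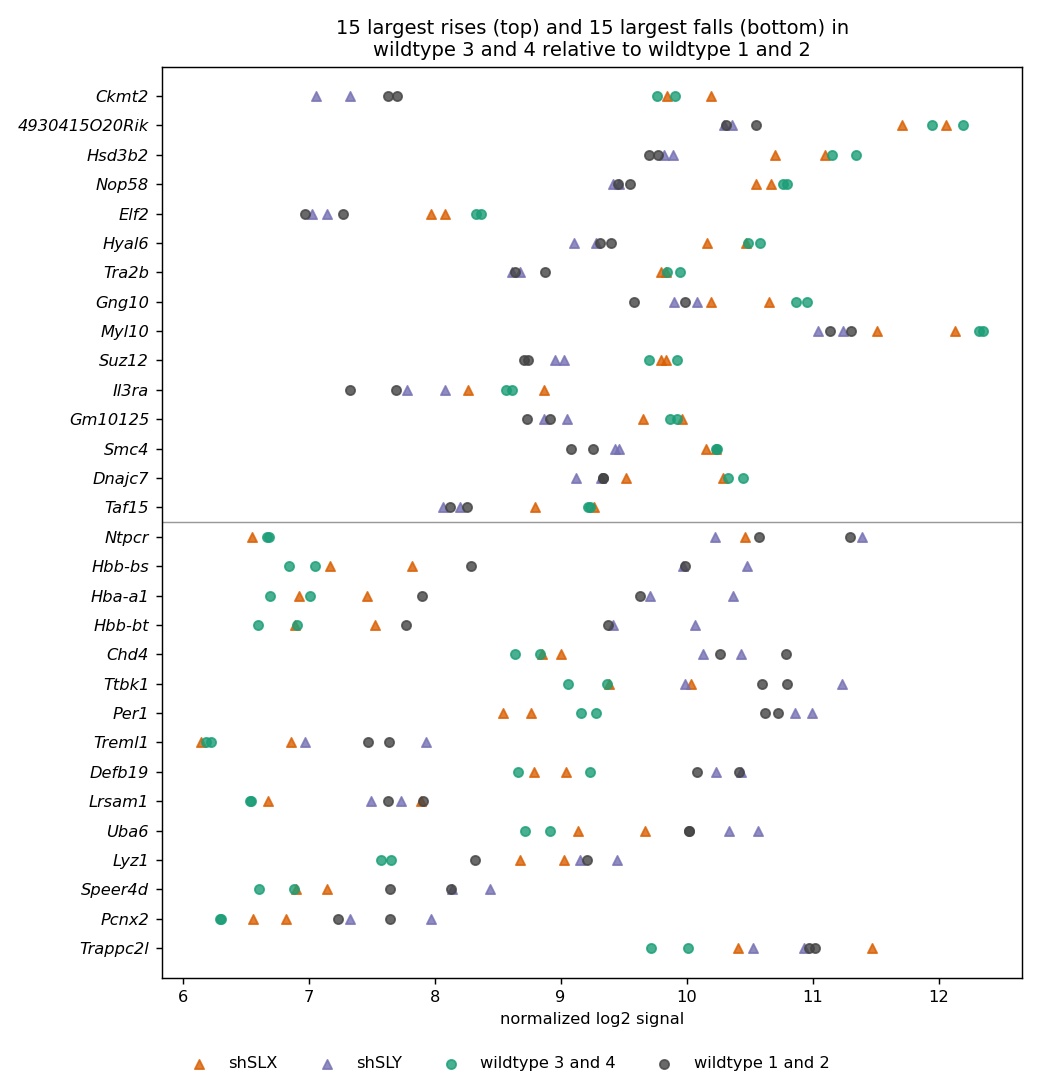
Normalized log2 signal of the 30 genes with the largest differences that passed the test, 15 higher (above the line) and 15 lower in wildtype 3 and 4 than in wildtype 1 and 2. Circles are wildtype arrays and triangles knockdown arrays, 1 point per array. For Ckmt2 the shSLX triangles lie by wildtype 3 and 4 and the shSLY triangles by wildtype 1 and 2, and for Ntpcr 1 shSLX array lies on each side.

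Genes of red blood cells were lower in wildtype 3 and 4. The 3 globin genes measured, which encode the chains of haemoglobin, all fell, and they are 3 of the 10 listed red blood cell genes. Of the others, 3 were not kept by the detection filter (Alas2, Hbb-b2 and Slc4a1) and 4 had no probe. Hbb-bs had log2 signals of 7.05 and 6.85 in wildtype 3 and 4, against 9.99 and 8.29 in wildtype 1 and 2. It fell by 2.19 ± 0.43 on the log2 scale (adjusted p = 0.0152), with 5 of its 6 probes past the threshold. The pairs did not overlap, and wildtype 1 stood far above wildtype 2.

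The other globins had the same profile. Hba-a1 had 7.01 and 6.69 in wildtype 3 and 4, against 9.63 and 7.90 in wildtype 1 and 2, and fell by 1.91 ± 0.45 (adjusted p = 0.0264). Hbb-bt had 6.90 and 6.60 in wildtype 3 and 4, against 9.38 and 7.77 in wildtype 1 and 2, and fell by 1.82 ± 0.43 (adjusted p = 0.0271), with 3 of its 4 probes past the threshold. Hba-a1 and Hbb-bs were also among the 6 genes that differed most between wildtype 1 and wildtype 2. Without wildtype 1 the differences were -1.34 for Hbb-bs, -1.05 for Hba-a1 and -1.02 for Hbb-bt and no longer passed the test. The calls were also lost without wildtype 3 or wildtype 4, and all 3 held without wildtype 2. The summed linear signal of the 3 genes was 381 and 315 in wildtype 3 and 4, against 2475 and 770 in wildtype 1 and 2, with 586 and 384 in the arrays labelled shSLX and 2526 and 3823 in the arrays labelled shSLY.

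The globin promoters are shown as a description of these genes, and promoter activity was not measured. Each line gives the 250 bases before the annotated start of the gene, from RefSeq on build GRCm38.p6, read 5′ to 3′ on the strand of the gene. Hbb-bs lies on the minus strand at chr7:103827929-103828178, Hbb-bt on the minus strand at chr7:103813924-103814173, and Hba-a1 on the plus strand at chr11:32283422-32283671. Capitals mark matches on either strand to the CCAAT box (letters CCAAT), to the CACC box (letters CACCC), to a motif of GATA factors (letters GATAAG) and to a TATA-like box (letters ATATAA). In Hbb-bt, 2 CCAAT matches on opposite strands adjoin and form 1 run of capitals.
Hbb-bs: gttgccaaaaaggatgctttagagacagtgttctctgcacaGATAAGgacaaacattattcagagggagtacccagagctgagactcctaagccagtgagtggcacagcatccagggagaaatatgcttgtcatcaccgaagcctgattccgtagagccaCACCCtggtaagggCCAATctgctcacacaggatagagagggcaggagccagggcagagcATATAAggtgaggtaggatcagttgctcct
Hbb-bt: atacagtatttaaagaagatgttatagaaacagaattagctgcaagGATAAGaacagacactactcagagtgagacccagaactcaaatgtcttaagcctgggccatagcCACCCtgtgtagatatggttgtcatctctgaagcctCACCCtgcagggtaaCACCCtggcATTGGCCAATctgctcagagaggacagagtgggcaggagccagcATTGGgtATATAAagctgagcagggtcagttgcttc
Hba-a1: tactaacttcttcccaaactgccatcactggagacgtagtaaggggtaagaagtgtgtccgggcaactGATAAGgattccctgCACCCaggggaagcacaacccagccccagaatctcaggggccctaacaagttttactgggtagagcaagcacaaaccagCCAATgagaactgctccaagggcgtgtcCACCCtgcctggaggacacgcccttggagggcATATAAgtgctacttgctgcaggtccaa

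All 3 windows held each of the 4 motifs. Among 32851 promoter windows of the same length, 33.8% held CCAAT, 52% CACCC, 6.55% GATAAG and 9.1% ATATAA on either strand. A match describes the letters and is not a measured binding site. The windows of Hba-a1 and its duplicate Hba-a2 share an unbroken run of 247 of 250 bases, and the probe of Hba-a1 may report both copies.

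Macrophage and other immune genes lay on the same side. Of 20 listed, 9 were measured, all 9 were below 0, and 4 fell (8 at an unadjusted p under 0.05), with a list median of -0.47 against -0.026 over all genes. Lyz1, a lysozyme, had 7.57 and 7.66 in wildtype 3 and 4, against 9.21 and 8.32 in wildtype 1 and 2, and fell by 1.15 ± 0.24 (adjusted p = 0.0182). Its second probe had the opposite sign. The complement gene C1qb, made by tissue macrophages, fell by 0.47. The complement gene C1qc and Csf1r, the receptor for macrophage growth factors, fell too. Their signals in wildtype 3 and 4 lay under the detection level of the array (6.45, the mean over wildtype 1 and 2 of the lowest detected log2 signal), so they were at least 1.15-fold and 1.11-fold lower. Lyz2 (-0.72), Adgre1 (-0.41) and Laptm5, which lay under the detection level in wildtype 3 and 4, did not pass the test.

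The summed linear signal of the 9 immune genes was 1034 and 1093 in wildtype 3 and 4, against 1924 and 1350 in wildtype 1 and 2. It was 1616 and 1481 in the arrays labelled shSLX and 2027 and 2178 in the arrays labelled shSLY. Wildtype 3 and 4 thus had the lowest 2 sums of the 8 arrays. The call of Lyz1 was lost without wildtype 1, 3 or 4. The part of blood and immune RNA in the differences of other genes was not tested.

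**Figure D3:**
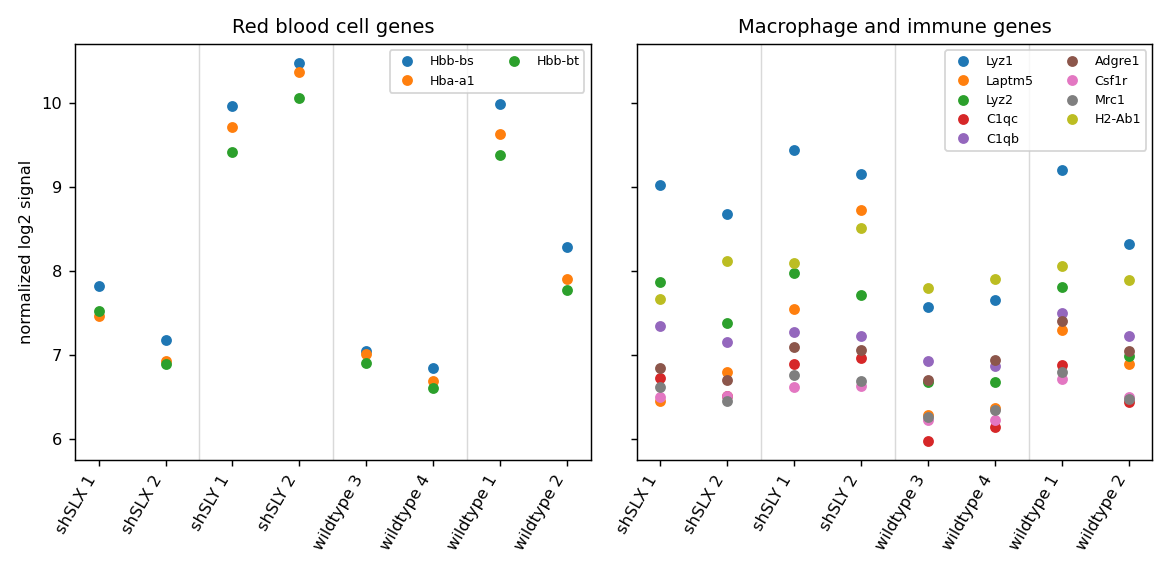
Normalized log2 signal of the 3 red blood cell genes (left) and the 9 macrophage and immune genes (right) measured, by array, 1 colour per gene. The globins lie between 6.60 and 7.05 in wildtype 3 and 4, between 9.38 and 9.99 in wildtype 1, and between 7.77 and 8.29 in wildtype 2.

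Other somatic lists moved less. Of 13 Sertoli cell genes measured of 26 listed, 2 were above 0 and 2 fell, with a median of -0.22. Cldn11, a tight junction protein of the blood-testis barrier, had 7.49 and 7.75 in wildtype 3 and 4, against 8.20 and 8.56 in wildtype 1 and 2, and fell by 0.76 ± 0.18 (adjusted p = 0.0267). Defb36, a beta-defensin gene, fell by 0.64. Sox9, a transcription factor that defines Sertoli cells, differed by -0.11 (adjusted p = 0.546), and Amh, Fshr and Gata4 were not kept by the detection filter.

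Of the peritubular and stromal genes, 8 of 17 were measured and none passed the limma test in either direction (at an unadjusted p under 0.05, 2 were lower). Their median was -0.093, and Acta2, a smooth muscle actin, was closest to the threshold (-0.42, adjusted p = 0.051). For Leydig cells, 2 of 13 listed genes were measured (Insl3 and Scarb1), and neither passed the test or had an unadjusted p under 0.05. Of 5 endothelial genes measured, Cldn5, a tight junction protein of vessels, rose by at least 1.13-fold, its signals in wildtype 1 and 2 being under the detection level. Of 5 striated muscle genes measured, Tmod4, an actin filament capping protein of muscle, fell by 0.35. The muscle list had a median of -0.079.

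Genes of epididymis and reproductive tract epithelium had a median of -0.28, and 3 of 12 measured fell. They were Klk1b5 and Klk1, kallikrein proteases, by 0.65 and 0.56, and Bmp8a, a growth factor also made by germ cells, by 0.40. Klk1b5 had 9.03 and 8.79 in wildtype 3 and 4, against 9.85 and 9.28 in wildtype 1 and 2. The kallikrein genes are near-identical copies on chromosome 7, and their probes may not separate them.

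**Figure D4:**
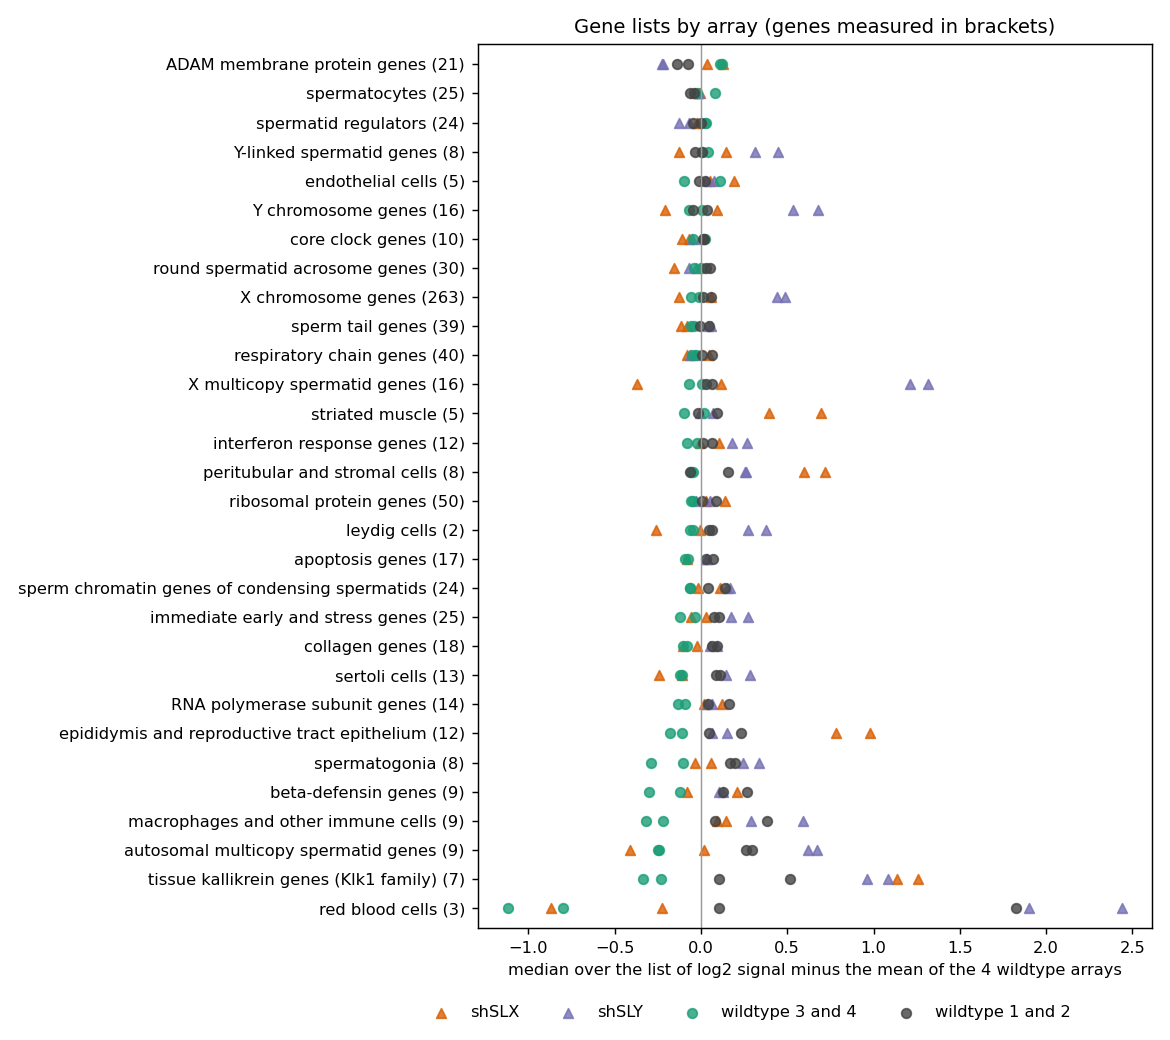
Median of each gene list by array, as log2 signal minus the gene's mean over the 4 wildtype arrays. Circles are wildtype arrays and triangles knockdown arrays, with the number of genes measured in brackets. Red blood cell genes spread furthest among the wildtype arrays (-0.80 and -1.12 in wildtype 3 and 4, 1.82 and 0.11 in wildtype 1 and 2), and the X multicopy list spreads among them by far less (-0.07 to 0.06) than it does in the arrays labelled shSLY (1.31 and 1.21).

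Genes of spermatogonia, the mitotic germ cells, were mostly lower in wildtype 3 and 4. Of 8 measured of 19 listed, 4 fell and 1 rose, with a median of -0.39. Sohlh1, a transcription factor of differentiating spermatogonia, fell by 0.48, Uchl1, a deubiquitinase, by 0.41, and Kit, the receptor of stem cell factor, by 0.37. Sall4, a stem cell transcription factor, was at least 1.13-fold lower, under the detection level in wildtype 3 and 4. Ddx4, an RNA helicase that spermatocytes and spermatids express too, rose by 0.42.

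Spermatocyte genes showed a median of 0.12, and 1 of 25 measured passed the test. That gene was Sycp2, a protein of the synaptonemal complex that joins meiotic chromosomes. It had 9.11 and 9.35 in wildtype 3 and 4, against 8.36 and 8.35 in wildtype 1 and 2, and rose by 0.87 ± 0.15 (adjusted p = 0.00871).

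Spermatid genes moved in both directions. Of 30 acrosome genes measured, 2 rose (6.67%) and 2 fell (6.67%), with a median of -0.062. These shares were near those over all genes (5.26% higher and 5.58% lower). Spam1, a sperm hyaluronidase, had 12.47 and 12.39 in wildtype 3 and 4, against 11.74 and 11.63 in wildtype 1 and 2, a rise of 0.75 ± 0.10 (adjusted p = 0.00416). Spaca1, an acrosomal membrane protein, rose by 0.67. Crisp2, a sperm protein of the acrosome and tail, fell by 0.69, and Fam170b by 0.44.

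Among 24 spermatid regulators measured, 3 rose (12.5%) and none fell in limma (at an unadjusted p under 0.05, 5 were higher and 0 lower). Brdt, a testis bromodomain protein, had 12.56 and 12.63 in wildtype 3 and 4, against 12.08 and 11.92 in wildtype 1 and 2, a rise of 0.60 ± 0.10 (adjusted p = 0.009). Kdm3a, a histone demethylase needed for transition protein and protamine genes in mouse, rose by 0.52, and Tdrd7, a component of germ cell RNA granules, by 0.44.

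Of 24 sperm chromatin genes measured, 1 rose (4.17%) and 2 fell (8.33%), with a median of -0.16. Over all genes the shares were 5.26% and 5.58%. Tnp1, which encodes transition protein 1, had 14.27 and 14.24 in wildtype 3 and 4, against 13.76 and 13.73 in wildtype 1 and 2, a rise of 0.51 ± 0.10 (adjusted p = 0.0174). Chd5, a chromatin remodeller of elongating spermatids, fell by 0.67. Tnp2, of transition protein 2, and Prm1, of protamine 1, differed by -0.16 and -0.07 and did not pass. Of 39 sperm tail genes measured, 2 rose (5.13%) and 1 fell (2.56%). The rises were Spag16, of the axoneme, and Catsper2, a subunit of the sperm calcium channel, by 0.44 and 0.40. Cfap65 fell by 0.59.

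The autosomal multicopy Speer genes, a spermatid-expressed family on chromosome 5, were lower. Of 9 measured of 20 listed, 4 fell (Speer4d, Speer4e, Speer3 and Speer1) and none rose in limma (7 lower and 0 higher at an unadjusted p under 0.05), with a median of -0.52. Speer4d had 6.89 and 6.60 in wildtype 3 and 4, against 7.64 and 8.13 in wildtype 1 and 2, and fell by 1.14 ± 0.18 (adjusted p = 0.00635). Copies of this family are near-identical, so the probes may share their transcripts. By contrast, X multicopy spermatid genes had a median of -0.059 and 1 of 16 fell (Mageb4, by 0.65), and none of 8 Y-linked spermatid genes passed the test (3 had an unadjusted p under 0.05).

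The largest single fall was that of Ntpcr, which encodes a nucleoside triphosphatase. It had 6.68 and 6.67 in wildtype 3 and 4, against 10.58 and 11.30 in wildtype 1 and 2, and fell by 4.26 ± 0.93 on the log2 scale (adjusted p = 0.0212). One probe measured it, and the arrays labelled shSLX disagreed with each other, at 10.47 and 6.55, while the arrays labelled shSLY had 10.23 and 11.39. Its call was lost without any 1 of the wildtype arrays. High and low signals thus occurred within the pair of arrays labelled shSLX.

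Per1, a light- and time-of-day-regulated gene of the circadian clock, also fell. It had 9.16 and 9.28 in wildtype 3 and 4, against 10.72 and 10.62 in wildtype 1 and 2, and fell by 1.45 ± 0.11 (adjusted p = 0.00027), with 2 of its 3 probes past the threshold. The arrays labelled shSLX had 8.76 and 8.54 and the arrays labelled shSLY 10.86 and 10.99. Per1 and Chd4 were the 2 of 15 falls that kept their call when any 1 wildtype array was left out.

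Chd4, the ATPase of the NuRD chromatin complex, had 8.63 and 8.84 in wildtype 3 and 4, against 10.26 and 10.79 in wildtype 1 and 2, and fell by 1.79 ± 0.17 (adjusted p = 0.000712). This was seen on 1 of its 3 probes, and the other 2 had the opposite sign. The remaining falls were Ttbk1, a kinase of tau and tubulin (-1.48), Defb19, a beta-defensin (-1.30), Lrsam1, a ubiquitin ligase (-1.23), Uba6, a ubiquitin-activating enzyme (-1.20), and Trappc2l, of a vesicle tethering complex (-1.13). Treml1, a receptor of platelets, and Pcnx2 lay under the detection level in wildtype 3 and 4 and were at least 2.14-fold and 1.98-fold lower (adjusted p = 0.0185 and 0.00975). A probe without a gene name fell by 2.23.

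Stress and immediate early genes, which respond to tissue handling, had a median of -0.16. Of 25 measured, 4 fell and 1 rose. Klf2, a transcription factor, had 9.28 and 9.32 in wildtype 3 and 4, against 9.82 and 9.93 in wildtype 1 and 2, and fell by 0.57. Gadd45g, a growth arrest gene, fell by 0.53, Mt1, a metallothionein, by 0.36, and Ddit3, of the unfolded protein response, by 0.33. Hspa1b, an inducible heat shock protein, rose by 0.52. One of 17 apoptosis genes fell (Bcl2l1, an inhibitor of cell death, by 0.49), as did 1 of 12 interferon response genes (Ifitm1, by 0.67).

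Taken over both directions, housekeeping lists passed the threshold about as often as all genes (10.8%). Respiratory chain genes had 5% higher and 5% lower, and ribosomal protein genes 2% and 8%, against 5.26% and 5.58% over all genes. Of 40 respiratory chain genes measured, 2 rose (Uqcrfs1 and Ndufa10) and 2 fell (Cox6a1 and Ndufb5). At an unadjusted p under 0.05 in limma, 4 were higher and 14 lower. Of 50 ribosomal protein genes, 1 rose (Rpl4) and 4 fell (Rps16, Rps3, Rpl39l and Rpl10a), and 3 were higher and 8 lower at an unadjusted p under 0.05. The ribosomal median was -0.12 against -0.026 over all genes, and 32% of the list was above 0 against 44.9%.

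Within a pair, the very largest differences were those of other genes, though Hba-a1 and Hbb-bs were among the 6 largest between wildtype 1 and wildtype 2. Gfer, a sulfhydryl oxidase of mitochondria, had 10.97 in wildtype 3 and 9.01 in wildtype 4. Ntan1, an amidase of the N-degron pathway, had 10.95 and 9.03 in the same arrays. Plxnb2, a semaphorin receptor, had 7.34 and 8.54, and Ranbp10, Rd3 and Rusc2 followed. Between wildtype 1 and wildtype 2, Prss40, a serine protease gene, had 5.91 and 8.67. The RIKEN gene 1810044D09Rik had 8.61 in wildtype 1 and 5.87 in wildtype 2, and Nmu, a neuropeptide gene, had 7.88 and 6.01. Prss40, 1810044D09Rik and Nmu were all below 6.45 in wildtype 3 and 4. Prss40 had 8.85 and 5.94 in the arrays labelled shSLX, and Ntan1 had 7.14 and 9.54 in the arrays labelled shSLY, so both genes also split a knockdown pair. Ntan1 split wildtype 1 and 2 as well, at 9.33 and 7.66.

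The wildtype comparison was set beside the knockdown comparisons as a scale. The arrays labelled shSLX minus wildtype 3 and 4 gave 486 probes higher and 119 lower (3.65% of probes), and the arrays labelled shSLY minus wildtype 1 and 2 gave 379 higher and 196 lower (3.47%). With the control pairs exchanged, the arrays labelled shSLX minus wildtype 1 and 2 gave 1443 higher and 1506 lower (17.8%), and the arrays labelled shSLY minus wildtype 3 and 4 gave 2229 higher and 2238 lower (27%). The wildtype arrays are shared between these comparisons and the wildtype one, so their differences are not independent. The number past 2-fold was 94 between the wildtype pairs, 103 for shSLX minus wildtype 3 and 4 and 116 for shSLY minus wildtype 1 and 2. With the pairs exchanged it was 150 and 323. The SD of the log2 difference was 0.273 between the wildtype pairs, 0.246 for shSLX minus wildtype 3 and 4 and 0.230 for shSLY minus wildtype 1 and 2. By the sample records, shSLY shares a slide with wildtype 1 but not with wildtype 2. The number past 2-fold was thus similar in these 3 comparisons. With all 8 arrays, the wildtype pairs differed from each other over more probes, by test, than shSLX from wildtype 3 and 4 or shSLY from wildtype 1 and 2. That order of counts did not hold without any 1 of the wildtype arrays: the wildtype comparison then gave 191, 176, 130 and 149 probes without wildtype 1, 2, 3 and 4, each below the count of shSLX minus wildtype 3 and 4 in the same fit (400, 400, 182 and 185), and below that of shSLY minus wildtype 1 and 2 (196, 333 and 333) except without wildtype 2, where that was 118. The arms of the wildtype comparison then hold 2 arrays and 1, and the lone array is assumed to vary like the others. The exchanged counts were 973 and 645 for shSLX without wildtype 1 or 2, and 1685 and 2191 for shSLY without wildtype 3 or 4. Leaving out shSLX 2 gave 2862 for shSLX minus wildtype 3 and 4, and leaving out shSLY 1 or shSLY 2 gave 178 and 280 for shSLY minus wildtype 1 and 2.

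The choice of control pair changed which genes led. Ckmt2 differed by 0.18 in shSLX minus wildtype 3 and 4 (adjusted p = 0.483) and by 2.36 in shSLX minus wildtype 1 and 2 (adjusted p = 1.58e-05). For shSLY it differed by -0.47 against wildtype 1 and 2 and by -2.65 against wildtype 3 and 4. Per1 differed by -0.57 and -2.02 for shSLX against wildtype 3 and 4 and against wildtype 1 and 2, and by 0.25 and 1.71 for shSLY against wildtype 1 and 2 and against wildtype 3 and 4. Hbb-bs differed by 0.55 and -1.64 for shSLX in those comparisons, and by 1.09 and 3.28 for shSLY. For shSLX, Hbb-bs and Hba-a1 passed the test against wildtype 1 and 2 (Hbb-bt had an adjusted p of 0.0523), and for shSLY all 3 globins passed against wildtype 3 and 4. No globin passed in shSLX minus wildtype 3 and 4, arrays that share a slide by the sample records. None passed in shSLY minus wildtype 1 and 2, where wildtype 1 but not wildtype 2 shares the recorded slide of shSLY. By the headers of the second table the values called shSLX lie on the slide of wildtype 1 instead.

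Other knockdown genes had similar values against both control pairs. Rhox11, an X-linked homeobox gene, was higher in the arrays labelled shSLY by 1.60 against wildtype 1 and 2 and by 1.56 against wildtype 3 and 4, with a wildtype difference of 0.04. Actrt1, an X-linked actin-related gene, had 1.52 and 1.51, and the wildtype pairs differed by 0.00. Fndc3a, needed for spermatid adhesion in mouse, differed by 1.32 and 1.26 in shSLX against wildtype 3 and 4 and against wildtype 1 and 2. In shSLY it differed by -1.60 against wildtype 1 and 2 and by -1.53 against wildtype 3 and 4, and the wildtype pairs differed by -0.06. Stfa1, a cysteine protease inhibitor, lay under the detection level in wildtype 3 and 4 and in wildtype 2. It was at least 4.23-fold higher in the arrays labelled shSLX than in wildtype 3 and 4 (adjusted p = 1.59e-05) and 2.07 higher on the log2 scale than wildtype 1 and 2.

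The kallikrein and muscle genes lay between these cases. Klk1b26 was higher in the arrays labelled shSLX by 2.25 against wildtype 3 and 4 and by 1.62 against wildtype 1 and 2, and the wildtype pairs differed by -0.63 (adjusted p = 0.112). Klk1b5 was higher by 2.02 and 1.37, with a wildtype difference of -0.65 that passed the test. Tmod4 was higher by 2.11 and 1.76, with a wildtype difference of -0.35 that also passed. In the arrays labelled shSLY, Klk1b26 was higher too, by 1.44 against wildtype 1 and 2 and by 2.07 against wildtype 3 and 4. In the same order, Klk1b5 was higher in shSLY by 1.11 and 1.76, and Tmod4 differed by -0.21 and 0.14.

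For the sex chromosomes the wildtype difference was small. The median over 263 X genes was -0.049 in wildtype 3 and 4 minus wildtype 1 and 2, with 3 genes higher and 14 lower, and over 16 Y genes it was 0.0054, with none past the threshold (4 at an unadjusted p under 0.05). The X median was 0.43 in shSLY minus wildtype 1 and 2 and 0.49 in shSLY minus wildtype 3 and 4. The Y medians were 0.54 and 0.71 in the same order. For X multicopy genes, the shSLY medians were 1.28 and 1.22 in the same order, against a wildtype median of -0.059. The red blood cell list showed the reverse: its wildtype median was -1.91, and its shSLY medians were 1.17 against wildtype 1 and 2 and 3.19 against wildtype 3 and 4.

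The wildtype comparison was also set beside shSLX minus shSLY, which shares no array with it. Both came from 1 fit with 1 estimate of spread for each probe, so passing the test in both is not independent. By the sample records, shSLX lies on the slide of wildtype 3 and 4 and shSLY on that of wildtype 1, while wildtype 2 lies on another slide. By the headers of the second table that is in doubt. In shSLX minus shSLY, 5155 probes passed the test (31.1%). Of the 946 probes higher in wildtype 3 and 4, 892 (94.3%) had a positive difference in shSLX minus shSLY and 625 passed there, which is 66.1% of the 946 and 24% of the 2601 probes higher in shSLX. Of the 834 lower probes, 754 (90.4%) had a negative difference and 528 passed, or 63.3% of the 834 and 20.7% of the 2554 probes lower in shSLX. Over all 16572 probes, 68.9% had the same sign and 25.1% passed in that direction, with a Pearson correlation of 0.539 and a Spearman correlation of 0.529 across probes, which are not independent replicates. By the sample records the shSLX and shSLY arrays differ in transgene as well as in slide, so the 2 cannot be told apart here.

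**Figure D5:**
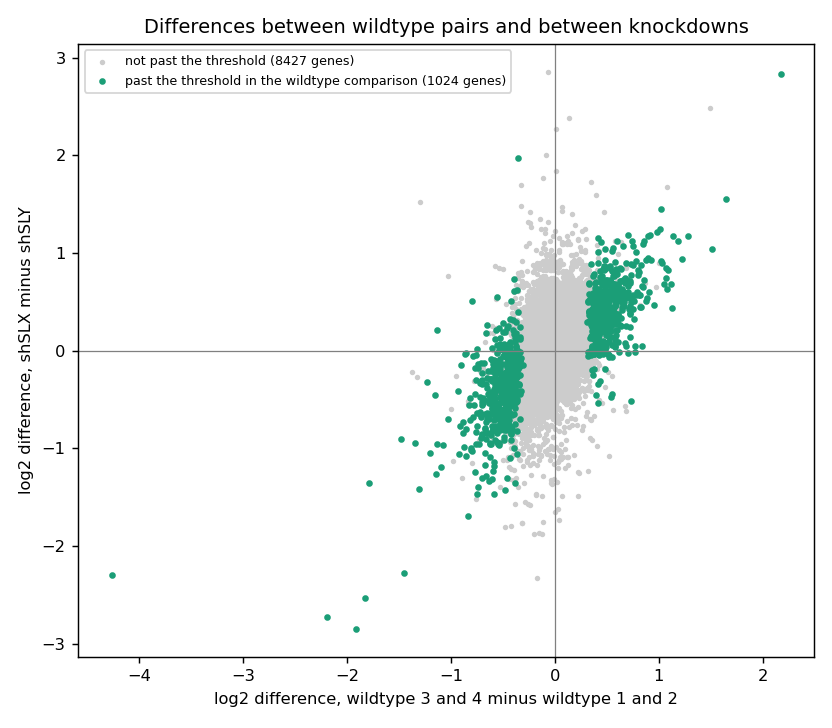
Log2 difference per gene in shSLX minus shSLY (vertical axis) against that in wildtype 3 and 4 minus wildtype 1 and 2 (horizontal axis), for 9451 genes by 1 probe each. Green points passed the test in the wildtype comparison. Most of them lie where both differences have the same sign, with Ckmt2 at the upper right, the globins at the bottom and Ntpcr at the far left.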

How the data were processed

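The deposited tables hold linear probe intensity for 8 Illumina mouse bead arrays with 45281 probes. The series matrix intensity had been normalized by the authors: its minimum and maximum are equal on all arrays. The non-normalized table gives intensity and a detection p-value per column, per the file headers. The submitters' processing notes list BeadStudio and GenomeStudio with no version.

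Series matrix values had their background corrected (limma normexp, offset 50), and were then quantile-normalized and taken to log2. Probes with a detection p-value under 0.01 in at least 2 of 8 columns were kept. None of these columns matched the normalized values of wildtype 3 and 4. The means of 4 groups were fitted over all 8 arrays with limma 3.58.1 under R 4.3.3 (lmFit, eBayes), with 4 residual and 5.97 prior degrees of freedom and Benjamini-Hochberg adjustment over 16572 probes at 0.05. Symbols came from the platform annotation (34885 probes with 1 symbol, 18 with several, 10378 with none), of which 34807 were updated to GRCm38.p6. A gene is represented by its probe with the highest mean.

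Named genes are the 15 largest differences past the threshold in each direction between the wildtype pairs, 6 in each direction per knockdown contrast, list members past the threshold with up to 4 of the largest differences, Sly, and the 6 largest differences within each wildtype pair. Genes outside the rule, chosen after their values were seen, are Acrv1, Hils1, Prm1, Tnp2, Sox9 and other list members named as not passing. The comparison and the lists were chosen with earlier results of these data known. The fit was tested on simulated data. The number of arrays limits the precision.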

Additional observations from a re-analysis of the deposited data

How the results depend on the processing

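Of the 30 genes named between the wildtype pairs, all kept their direction and call with normexp offset 16, the series matrix as deposited, no filter, 1 probe per gene and the wildtype arrays alone, as did the 28 that remained with probes detected in all 8 columns. The fits with slide as a fixed term or as a random block (consensus correlation -0.213) use the disputed slide labels, and no slide holds arrays of both wildtype pairs, so neither takes a slide effect out of this comparison. Leaving out wildtype 1, 2, 3 or 4 ended 12, 10, 18 and 16 calls, with no sign turned. The non-normalized table by its headers, where columns carry other arrays' ranks, turned 18 signs: Ckmt2 -0.66, 4930415O20Rik -0.11, Nop58 -0.068, Elf2 -0.047, Hyal6 -0.17, Tra2b -0.13, Myl10 -0.084, Dnajc7 -0.12, Taf15 -0.066, Hbb-bs 1.18, Hba-a1 1.41, Hbb-bt 1.31, Per1 0.26, Defb19 0.085, Uba6 0.45, Lyz1 0.60, Speer4d 0.50 and Pcnx2 0.28; the exchange of names is part of its construction. By those headers, none of the 30 genes kept both its direction and its call. Across list medians and alternatives, 179 values moved by less than the spread between replicates and 91 by more.

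The number of probes past the threshold between the wildtype pairs was 1780. It was 989 with 1 probe per gene (fewer probes tested), 3161 with slide as a random block, 1067 with slide as a fixed term, 209 by the non-normalized headers, 3928 in the wildtype arrays alone and 130 to 3809 without 1 array. For shSLX minus wildtype 3 and 4 (605) it was 403 with probes detected in all columns, 402 with 1 probe per gene, 400 with slide as a fixed term, 4016 by the non-normalized headers and 182 to 2862 without 1 array. For shSLX minus wildtype 1 and 2 (2949) it was 1802 with 1 probe per gene, 1098 by those headers and 645 to 4432 without 1 array. For shSLY minus wildtype 1 and 2 (575) it was 334 with 1 probe per gene, 367 with slide as a fixed term, 1387 by those headers and 118 to 1273 without 1 array. For shSLY minus wildtype 3 and 4 (4467) it was 2607 with 1 probe per gene and 1685 to 6553 without 1 array. The share of higher among changed probes was 53.1% between the wildtype pairs and 73.2% by the non-normalized headers. It was 80.3% for shSLX minus wildtype 3 and 4, 90.8% there with slide as a fixed term and 50.3% by those headers. It was 65.9% for shSLY minus wildtype 1 and 2 and 51.3% by those headers. The arrays the wildtype comparison does not use (shSLX minus shSLY, chosen after the data were seen) gave 5155. Apart from the headers, whose exchange is described above, and the tests with fewer probes or arrays, the cause was not tested.

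The wildtype pairs share no replicate number, so no block could be fitted between them. Over the 6 arrays numbered 1 and 2, the replicate block gave 2103 probes for shSLX minus wildtype 1 and 2 and 334 for shSLY minus wildtype 1 and 2, against 2088 and 333 in those arrays without it. Correlations of same-numbered deviations were 0.050, 0.138 and -0.063, so the samples share only a number. Signal near background limits genes such as Treml1 and Pcnx2 to bounds.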

Other observations

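Some gene families were chosen after their values were seen and are given as descriptions with no test of the family. Of 21 ADAM genes measured, which encode membrane proteins many of which are made by spermatids, 6 were higher in wildtype 3 and 4 (Adam6a 0.92, Adam4, Adam34l, Adam6b, Adam20 and Adam21), and Adam15, made by many somatic cells, was lower (-1.10). Of 18 collagen genes, 1 was above 0 and 4 passed as lower, led by Col26a1 (-0.86). Of 9 beta-defensin genes, 4 were lower and Defb14 was higher (0.73). Of 7 tissue kallikrein genes, all were below 0 and 4 were lower. Of 14 RNA polymerase subunit genes, 3 were lower (Polr2j, Polr2e and Polr2h). Of 10 core clock genes, Per1 alone passed the test.

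On the X chromosome, the 3 genes higher in wildtype 3 and 4 were Emd, which encodes the nuclear envelope protein emerin (0.73), Map7d3 (0.55) and Usp9x, a deubiquitinase (0.48). The 14 lower genes included Usp26, a testis deubiquitinase (-0.75), and Mageb4 (-0.65). Cfp, which encodes the complement factor properdin, lay under the detection level in wildtype 3 and 4 and was at least 1.40-fold lower there (limma adjusted p = 0.0104).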
